A study of Mus musculus with 12 samples.

Results

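Gas2, Csrp2 and Qpct are 3 of the 13233 genes measured by RNA-Seq in primary hernia-associated fibroblasts (HAFs), and all 3 had less mRNA when fulvestrant was added to estradiol (E2). The 3 were chosen by name for this fall, that is by their difference between E2 and E2 plus fulvestrant in earlier results of these data, so that difference is given below as a description without a test. The cells came from the lower abdominal muscle (LAM) of Arom hum mice, which carry human aromatase, the enzyme that makes estrogen from androgen, so the vehicle group carries the same transgene as the treated groups. Each of 4 groups of 3 samples was kept for 48 h in ethanol and DMSO as vehicle, in E2 at 10 nM, in fulvestrant at 100 nM, or in both agents at these doses. The labels call the cells skeletal muscle fibroblasts. The study obtained them by their early attachment to culture plates and passaged them before treatment in low, charcoal-stripped serum. Fulvestrant is an estrogen receptor antagonist that also lowers the receptor protein. Neither the age of the animals nor whether the 3 samples of a group came from separate mice is given in the sources used here, so p-values measure only the spread between these samples, which may be technical.

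The 3 genes act in different places in a cell. Gas2 (growth arrest-specific 2) encodes a protein of the actin microfilaments that was first described in fibroblasts that had stopped dividing, that binds calpain and that is cut by caspases during apoptosis. Csrp2 encodes a LIM-domain protein of the cysteine and glycine-rich protein family, which binds the actin crosslinker alpha-actinin and, in the nucleus, works with serum response factor on smooth muscle genes. Qpct encodes glutaminyl-peptide cyclotransferase, a secreted enzyme that turns an N-terminal glutamine of peptides and proteins into pyroglutamate and so shields them from aminopeptidases. E2 acts in these cells through the nuclear estrogen receptor ESR1, which binds DNA at estrogen response elements or by way of other transcription factors.

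In the annotation of GRCm38, Gas2 (ENSMUSG00000030498) lies on chromosome 7 from 51862015 to 51994975, Csrp2 (ENSMUSG00000020186) on chromosome 10 from 110919789 to 110939622, and Qpct (ENSMUSG00000024084) on chromosome 17 from 79051906 to 79090378. All 3 are protein-coding genes on the plus strand, and 0.0% of the exon sequence of each is shared with another gene of that strand. On the other strand, exons of Fancf, a gene of DNA crosslink repair, lie over exons of Gas2. The authors counted reads by strand, and Fancf had 282 ± 37.4 normalized counts (SD, n = 3) with vehicle and 242 ± 40.2 (SD, n = 3) with fulvestrant, a log2 difference of -0.22 that was not called (limma adjusted p = 0.418).

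The RefSeq start-site sequences of GRCm38.p6 hold 2 windows for Gas2, and Csrp2 and Qpct were not matched in them. The 250 bases before each start are shown so that its promoters can be read beside its values. The 2 windows differ in makeup, with 80.4% G and C in the first and 46.0% in the second. Capitals mark the only matches found among 6 motifs searched on both strands, with 1 GC box (GGGCGG) beginning at position -58 from the first start and 1 CCAAT box (CCAAT) at -226 from the second.
Gas2 first start, chr7:51861765-51862014, plus strand: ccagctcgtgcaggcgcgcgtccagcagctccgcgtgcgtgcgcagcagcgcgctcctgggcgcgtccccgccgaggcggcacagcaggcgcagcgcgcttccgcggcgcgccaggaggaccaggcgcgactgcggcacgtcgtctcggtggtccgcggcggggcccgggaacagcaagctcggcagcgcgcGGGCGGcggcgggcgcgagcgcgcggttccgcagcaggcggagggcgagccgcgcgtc
Gas2 second start, chr7:51878717-51878966, plus strand: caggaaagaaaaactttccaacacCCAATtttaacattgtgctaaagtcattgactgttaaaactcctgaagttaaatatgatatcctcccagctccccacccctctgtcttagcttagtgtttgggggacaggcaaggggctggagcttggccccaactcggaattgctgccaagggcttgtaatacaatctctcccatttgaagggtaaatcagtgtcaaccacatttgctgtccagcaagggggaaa
Of the 32851 windows of 300 bases searched, which run from 250 bases before a start to 50 after it, 35.7% held the GC box and 37.4% the CCAAT box. Neither Gas2 window held the full estrogen response element (GGTCANNNTGACC, in 0.0700% of windows), its shorter core (GGTCA, in 40.5%, which every full element also holds), an AP-1 site (TGANTCA, in 7.81%) or a TATA box (TATAAA, in 13.6%). These letters are a description of the windows and locate no bound factor.

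The libraries differed by replicate number more than by treatment. The first principal component held 70.8% of the variance and placed the 4 samples of replicate 1 between -60.5 and -43.5 and the 8 of replicates 2 and 3 between 15.1 and 35.6. Comparisons were therefore made between same-numbered samples, with the replicate number as a block in the fit. Genes counted as called where limma's p-value, adjusted by Benjamini-Hochberg over all 13233 genes, was under 0.05 and the fold change over 1.2. Reads on the listed genes ranged from 18827792 to 44040507 per sample. The 3 members were well covered, from 769 to 4463 reads per sample for Gas2, from 78 to 510 for Csrp2 and from 187 to 1528 for Qpct. The lowest, 78 reads of Csrp2 in fulvestrant replicate 3, has a 95% Poisson interval of 61.7 to 97.3 reads, which covers counting error only. All 9 fibroblast markers searched were listed, among them Pdgfra and Col1a1. None of 8 myogenic and 4 adipocyte markers was listed, a gene being listed where each sample had at least 10 reads.

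Gas2 was an abundant transcript in HAFs that fell with fulvestrant whether or not E2 was present, and E2 did not raise it. With vehicle its normalized counts were 3955, 3214 and 2988 in replicates 1, 2 and 3, and with E2 they were 3203, 2827 and 2608. Both agents together gave 1142, 1190 and 1182, and fulvestrant alone 1277, 1213 and 1247. The 6 samples without fulvestrant all lay above the 6 with it, and the vehicle and E2 groups overlapped. The group means were 3386 ± 506 with vehicle, 2879 ± 301 with E2, 1171 ± 25.3 with E2 plus fulvestrant and 1246 ± 31.9 with fulvestrant alone (SD, n = 3). The samples with fulvestrant were close together, with a coefficient of variation of 2.16% with E2 plus fulvestrant and 2.56% with fulvestrant alone, against 14.9% with vehicle and 10.4% with E2.

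Csrp2 was a low transcript that was higher with E2 than with vehicle and lower with fulvestrant than with vehicle. With vehicle its normalized counts were 257.0, 221.8 and 224.3 in replicates 1, 2 and 3, and with E2 they were 471.5, 439.9 and 428.2. In E2 plus fulvestrant they were 156.6, 156.7 and 152.0, and with fulvestrant alone 135.8, 109.1 and 126.5. No neighbouring groups overlapped in the order E2, vehicle, E2 plus fulvestrant, fulvestrant. The group means were 234.4 ± 19.6 with vehicle, 446.6 ± 22.4 with E2, 155.1 ± 2.69 with E2 plus fulvestrant and 123.8 ± 13.5 with fulvestrant alone (SD, n = 3).

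Qpct was the member that stood highest with E2 relative to every other group. With vehicle its normalized counts were 362.8, 507.2 and 467.3 in replicates 1, 2 and 3, and with E2 they were 1041, 1162 and 1283. In E2 plus fulvestrant they were 385.1, 364.8 and 391.2, and with fulvestrant alone 358.4, 297.6 and 303.3. The 3 samples with E2 alone lay above the other 9, and the vehicle samples overlapped those with E2 plus fulvestrant. The group means were 445.8 ± 74.6 with vehicle, 1162 ± 121 with E2, 380.4 ± 13.8 with E2 plus fulvestrant and 319.8 ± 33.6 with fulvestrant alone (SD, n = 3).

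**Figure D1:**
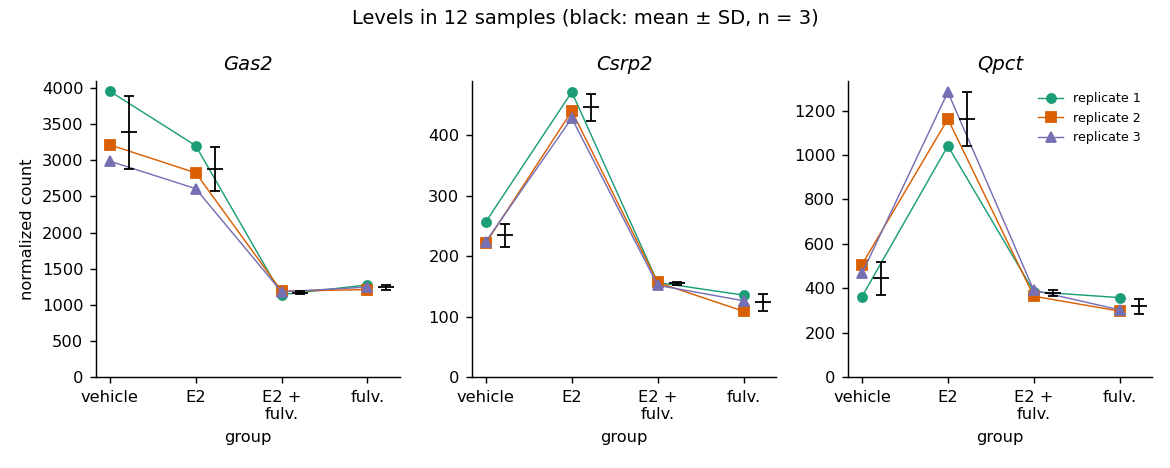
Normalized counts of Gas2, Csrp2 and Qpct (y axis, from 0, with a scale of its own in each panel) in the 4 groups, with coloured lines joining same-numbered samples and black bars for the mean ± SD (n = 3). Gas2 stood at 2608 or more in the 6 samples without fulvestrant and at 1277 or less in the 6 with it, whereas Csrp2 and Qpct peaked with E2.

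To compare the 3 genes with each other, normalized counts were divided by exon length. The quotients were then scaled to their sum over the listed genes of each sample, as in TPM. On this scale Gas2 had a mean level of 80.3 ± 20.9 (SD, n = 3) with vehicle, at the 84.4th percentile of all genes, and of 28.1 ± 4.86 with fulvestrant, at the 56.9th. Csrp2 had a level of 12.7 ± 2.52 with vehicle, 22.9 ± 3.55 with E2 and 6.45 ± 1.54 with fulvestrant, at the 33.1st, 51.3rd and 20.2nd percentiles. Qpct had a level of 20.3 ± 1.31 with vehicle, 50.4 ± 3.12 with E2 and 14.3 ± 3.72 with fulvestrant, at the 46.1st, 74.6th and 37.1st percentiles. With vehicle the order was therefore Gas2, Qpct, Csrp2, and it was the same with E2, where Gas2 had a level of 64.3 ± 13.4.

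Fulvestrant against vehicle is the comparison that uses no sample of the contrast by which the genes were chosen, and it asks whether fulvestrant lowers them without added E2. Gas2 and Csrp2 fell, and Qpct did not pass the test. Gas2 changed by -1.63, -1.40 and -1.26 on the log2 scale in the 3 pairs, a mean of -1.43 (SE 0.09, 95% interval -1.64 to -1.22, limma adjusted p = 0.00211), which is 2.70-fold lower. It was number 34 among the 13233 genes ordered from the largest fall, with Csrp2 at number 150 and Qpct at number 723. Csrp2 changed by -0.92, -1.02 and -0.82, a mean of -0.92 (SE 0.14, 95% interval -1.24 to -0.60, limma adjusted p = 0.0153), or 1.89-fold lower. Qpct changed by -0.02, -0.77 and -0.62, a mean of -0.47 (SE 0.16, 95% interval -0.85 to -0.09, limma adjusted p = 0.149). In replicate 1 Qpct was thus nearly level between vehicle and fulvestrant, with 362.8 and 358.4 normalized counts.

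Of the 3 members, 2 were called lower, beside 5.23% of all genes called in either direction and 2.49% called lower. All 3 were lower in 3 of 3 pairs with no overlap between the groups, beside 5.45% of all genes that were lower without overlap. An exact permutation test over the samples, which ignores the pairing, gave a two-sided p of 0.1 for each member, the smallest that 3 against 3 allows. This value follows from the lack of overlap, so it adds nothing to it and does not rank the members. Without the replicate block the same mean differences had limma adjusted p-values of 0.122 for Gas2, 0.341 for Csrp2 and 0.830 for Qpct, and 0 of 13233 genes (0%) were called, with 706 at an unadjusted p under 0.05. Without replicate 1, which stood apart, the log2 differences were -1.33 for Gas2 (adjusted p = 6.5e-07), -0.92 for Csrp2 (adjusted p = 0.00208) and -0.69 for Qpct (adjusted p = 0.00190). The Csrp2 call was lost without replicate 2 (-0.87, adjusted p = 0.147) or without replicate 3 (-0.97, adjusted p = 0.102), whereas Gas2 was called without any 1 of the 3.

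**Figure D2:**
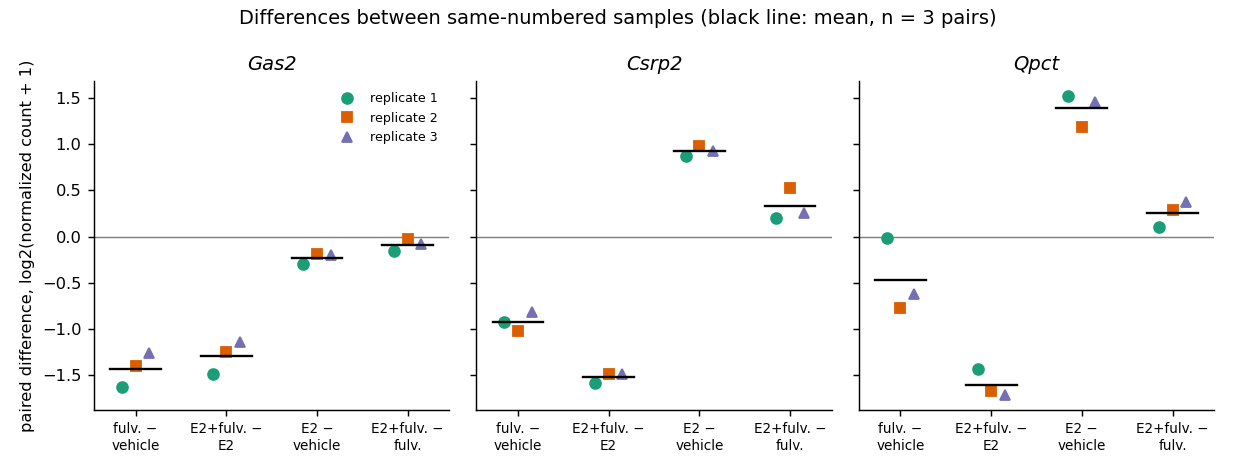
Differences in log2(normalized count + 1) between same-numbered samples (y axis) for each member in 4 comparisons (x axis), with 1 point per pair and a black line for the mean of 3 pairs. Gas2 was about as far below its partner in fulvestrant against vehicle (-1.43) as in E2 plus fulvestrant against E2 (-1.29), whereas Qpct was further below its partner with E2 (-1.60) than without it (-0.47).

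E2 plus fulvestrant against E2 is the contrast behind the choice. Gas2 differed by -1.49, -1.25 and -1.14 in the 3 pairs (mean -1.29, SD 0.18, 2.45-fold lower). Csrp2 differed by -1.58, -1.48 and -1.49 (mean -1.52, SD 0.06, 2.86-fold lower), and Qpct by -1.43, -1.67 and -1.71 (mean -1.60, SD 0.15, 3.04-fold lower). The pairs of Csrp2 were the closest together. In this comparison 8.68% of all genes were called with the replicate block and 0.0605% without it, and 6.54% of all genes were lower without overlap. That all 3 members were among the latter follows from how they were chosen, and nothing is read from it. The earlier choice drew on the fit without the block, in which 6 genes were called lower with E2 plus fulvestrant. Beside the 3 members these were Akr1c14 (-2.33), Slco2a1 (-2.22) and Igf1 (-0.78). Just outside the threshold, in order of adjusted p, lay AW551984 (-1.61), Galnt13 (-1.47) and Agtr2 (-1.51), and these 6 genes are named after their values were seen.

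E2 against vehicle shares its E2 samples with the choice and is likewise described without a test. Qpct was higher with E2 by 1.52, 1.19 and 1.46 in the 3 pairs (mean 1.39, SD 0.17, 2.62-fold), number 4 among all genes ordered from the largest rise. Csrp2 was higher by 0.87, 0.98 and 0.93 (mean 0.93, SD 0.06, 1.90-fold), number 20 in that order. Gas2 was lower by 0.30, 0.19 and 0.20 in the 3 pairs, a mean of -0.23 (SD 0.07), and its groups overlapped. Csrp2 and Qpct were higher with E2 without overlap, as were 3.05% of all genes, and 0.431% of all genes were called in this comparison with the replicate block. Since the E2 samples chose the members, nothing is read from their place beside these shares.

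With fulvestrant present, E2 made little difference to Gas2 and left Csrp2 and Qpct slightly higher. E2 plus fulvestrant minus fulvestrant was -0.16, -0.03 and -0.08 for Gas2 (mean -0.09, SD 0.07), 0.20, 0.52 and 0.26 for Csrp2 (mean 0.33, SD 0.17) and 0.10, 0.29 and 0.37 for Qpct (mean 0.25, SD 0.14). Against vehicle, E2 plus fulvestrant left Gas2 lower by a mean of -1.52 (SD 0.24) and Csrp2 by -0.59 (SD 0.11) on the log2 scale. For Qpct the same pairs gave 0.09, -0.47 and -0.26 (mean -0.21, SD 0.28), with overlap between the groups. The fulvestrant difference with E2 minus that without it was 0.14 (SD 0.02, n = 3 pairs) for Gas2, -0.60 (SD 0.12) for Csrp2 and -1.14 (SD 0.26) for Qpct. The E2 plus fulvestrant samples enter all of these differences, so they are not independent of each other. The name given to the group, strongly lowered by fulvestrant, thus described Gas2 with and without E2. For Qpct the fall was larger in the cells given E2, but that contrast chose the genes, so the size of the gap is not read. Without E2, Qpct was also lower in 3 of 3 pairs without overlap (mean -0.47, 95% interval -0.85 to -0.09), although not called. In the limma test of the interaction of E2 and fulvestrant, given below, 0 genes had an adjusted p under 0.05. Whether the fall of Qpct differs with E2 is therefore left undecided.

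**Figure D3:**
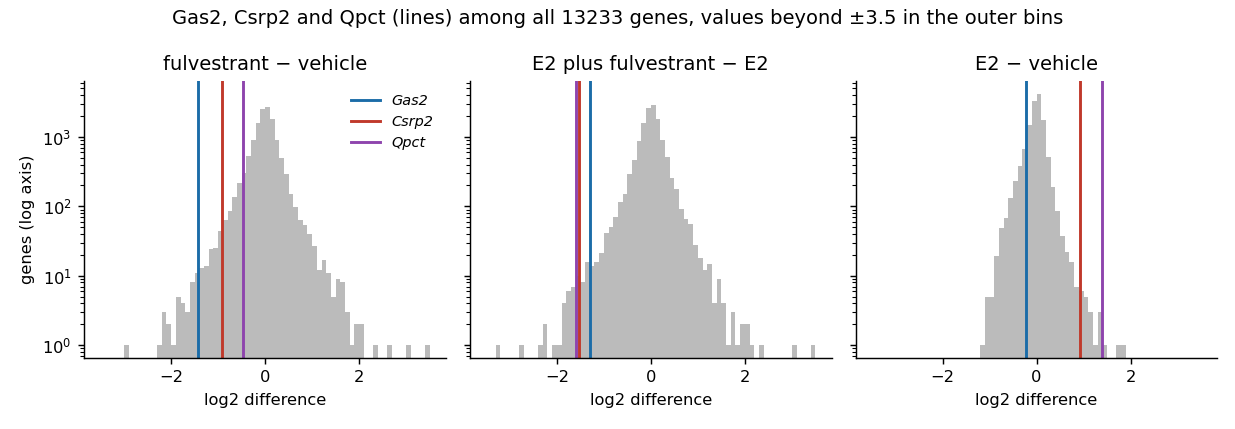
Histograms of the log2 difference (x axis) of all 13233 genes (y axis, number of genes on a log scale) in 3 comparisons, with coloured lines at the 3 members. Gas2 lay in the lower tail under fulvestrant with or without E2 and nearer to 0 under E2 (-0.23, number 1297 from the largest fall), whereas Qpct moved from the upper tail under E2 (1.39) to the lower tail when fulvestrant was added (-1.60).

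Of 5 genes for estrogen receptors and their responses, 3 were listed, and of these Esr1 and Pgr fell with fulvestrant alone and Nrip1 was not called, beside 2.49% of all genes called lower. Esr2 and Greb1 were not listed. Esr1, which encodes the receptor, was at 348 ± 146 normalized counts with vehicle, 550 ± 84.2 with E2, 126 ± 77.5 with E2 plus fulvestrant and 133 ± 77.8 with fulvestrant (SD, n = 3). It fell by 1.46 on the log2 scale with fulvestrant alone (limma adjusted p = 0.00757). Pgr, the progesterone receptor gene and a classical E2 target, was at 71.7 ± 41.2 with vehicle, 239 ± 83.3 with E2 and 16.9 ± 4.27 with fulvestrant (SD, n = 3). It rose by 1.88 with E2 (limma adjusted p = 0.0143) and fell by 1.82 with fulvestrant alone (adjusted p = 0.0333). Without the replicate block none of these was called, with adjusted p-values of 0.719 for Esr1 and 0.673 for Pgr under fulvestrant alone and 1.00 for Pgr under E2. The rise of Pgr with E2 was also not called without replicate 3 or without the variance trend. Esr1 was not called without replicate 3 (-1.25, adjusted p = 0.0671), and Pgr was not called under fulvestrant without replicate 2 (-1.76, 0.186), replicate 3 (-1.42, 0.208) or the variance trend (0.0934). The log2 difference of Pgr under fulvestrant alone was -1.05 with CPM and -2.28 without replicate 1. Nrip1, a cofactor of nuclear receptors that E2 induces in other cells, had log2 differences of 0.22 under fulvestrant alone (limma adjusted p = 0.441), 0.25 for E2 plus fulvestrant against E2 (adjusted p = 0.153) and 0.07 for E2 against vehicle (adjusted p = 0.593).

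The relatives of Gas2 did not pass the test. Of the 4 listed members of the GAS2 family and of the large crosslinkers that share its microtubule-binding GAR domain, 0 were called by limma with fulvestrant alone, 0 with E2 plus fulvestrant against E2 and 0 with E2, and 0 had an unadjusted p under 0.05 in any of these. With 5.23%, 8.68% and 0.431% of all genes called in these comparisons, 0 of 4 does not set them apart from other genes. Under fulvestrant alone the log2 difference was -0.03 (SE 0.07) for Gas2l1, 0.17 (SE 0.22) for Gas2l3, -0.16 (SE 0.12) for Macf1 and 0.06 (SE 0.11) for Dst, all far smaller in size than that of Gas2. The signs of Gas2l1, Gas2l3 and Dst each depended on 1 replicate number. Of 12 genes for calpains, their inhibitor calpastatin and caspases, the families of a partner and of the proteases of GAS2, 0 were called by limma with fulvestrant alone, with 4 at an unadjusted p under 0.05 (median log2 difference -0.05, against 0.01 over all genes). Of all 13233 genes, 5.23% were called in this comparison and 2891 were at an unadjusted p under 0.05. Between E2 and E2 plus fulvestrant, Cast, which encodes calpastatin, rose by 0.31 (adjusted p = 0.0167), and Capn6 fell by 0.41 (adjusted p = 0.0262), beside 4.60% of all genes called higher and 4.07% called lower. Neither was called without the block, with adjusted p-values of 0.528 for Cast and 0.994 for Capn6.

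Among other growth arrest-specific genes, which share a name and a history in resting fibroblasts but whose products are unrelated, those called were higher with fulvestrant. Of the 5 listed, 3 rose with fulvestrant alone and 0 fell, with a median log2 difference of 0.34, beside 2.74% of all genes called higher. Gas6, a ligand of the TAM receptor kinases, rose by 1.07 (SE 0.18, adjusted p = 0.0206), Gas7, a protein of actin-rich protrusions, by 0.92 (SE 0.16, adjusted p = 0.0248) and Pmp22, a membrane protein of myelin and other cells, by 0.34 (SE 0.07, adjusted p = 0.0461). In E2 plus fulvestrant against E2, 4 of the 5 rose and 0 fell, beside 4.60% of all genes called higher, including Gas1, an inhibitor of growth that acts at the cell surface (0.52, SE 0.05, adjusted p = 0.00310). The remaining gene, Gas5, a noncoding host gene of small nucleolar RNAs, had log2 differences of -0.17 and -0.22 in these comparisons and was not called. The levels of Gas6 differed widely between replicates, from 26860 to 50790 normalized counts with vehicle and from 47910 to 147600 with fulvestrant. None of these calls was made without the replicate block (adjusted p of 0.909 or more), and the Gas6, Gas7 and Pmp22 calls under fulvestrant were each lost without replicate 2 (adjusted p of 0.122, 0.108 and 0.321) or without replicate 3 (0.102, 0.0795 and 0.183), and without the variance trend (0.0741, 0.113 and 0.134). The Pmp22 call was also lost with quantile normalization and with CPM.

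Of the 16 proliferation genes, 0 were called by limma with fulvestrant alone, beside 5.23% of all genes. At an unadjusted p under 0.05 were 3 of the 16, beside 2891 of all 13233 genes. Neither count sets them apart from other genes. A positive log2 difference was found for 12 of them (median 0.22, against 0.01 over all genes). Against E2, E2 plus fulvestrant gave 1 call, a rise of Mcm2, a subunit of the replication helicase (0.29, adjusted p = 0.0409, and 0.986 without the block), beside 4.60% of all genes called higher, and the median was -0.07.

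Of the relatives of Csrp2, Crip2 and Csrp1 rose with fulvestrant alone, the treatment in which Csrp2 fell. Of the 3 listed genes of the CRP and CRIP LIM proteins, 2 rose with fulvestrant alone and 0 fell, beside 2.74% of all genes called higher. Crip2, another small LIM protein, had 1687 ± 90.5 normalized counts with vehicle and 2780 ± 160 with fulvestrant (SD, n = 3), a rise of 0.72 (SE 0.08, limma adjusted p = 0.00733). Csrp1, the closest listed relative of Csrp2 by name and family, had 1132 ± 218 and 1488 ± 324, a rise of 0.39 (SE 0.07, adjusted p = 0.0330). Crip1 had a log2 difference of 0.47 that was not called (SE 0.13, adjusted p = 0.0872). In E2 plus fulvestrant against E2, Crip2 also rose (0.66, adjusted p = 0.00242) and Csrp1 was not called (0.16, adjusted p = 0.171). Without the block the adjusted p-values under fulvestrant alone were 0.191 for Crip2 and 0.978 for Csrp1, and Crip2 had one of 0.0941 in E2 plus fulvestrant against E2. The call of Csrp1 was lost without replicate 2 (0.40, adjusted p = 0.243) or replicate 3 (0.35, 0.187) and that of Crip2 without replicate 3 (0.64, 0.0727). Without the variance trend neither was called, with adjusted p-values of 0.0646 for Crip2 and 0.110 for Csrp1.

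Among LIM proteins and actinins of actin fibres and adhesions, too, the genes called were higher with fulvestrant. Of the 19 listed LIM and actinin genes of focal adhesions, 4 rose with fulvestrant alone and 0 fell, with a median of 0.14 on the log2 scale against 0.01 over all genes and 2.74% of all genes called higher. Actn1, which encodes the alpha-actinin that LIM proteins bind, went from 7657 ± 542 normalized counts with vehicle to 14680 ± 1014 with fulvestrant (SD, n = 3), a rise of 0.94 (SE 0.08, adjusted p = 0.00306). The others were Lims2, a LIM protein of integrin complexes (0.77, adjusted p = 0.0220), Pdlim1, which tethers to alpha-actinin (0.53, adjusted p = 0.0203), and Pxn, the adhesion scaffold paxillin (0.33, adjusted p = 0.0414). In E2 plus fulvestrant against E2, 6 of the 19 rose and 0 fell, beside 4.60% of all genes called higher, and these 6 had adjusted p-values of 0.0903 or more without the block. Without the block Actn1 had an adjusted p of 0.191 under fulvestrant alone and the other 3 genes of 0.328 or more. Lims2, Pdlim1 and Pxn were not called without replicate 2 (adjusted p of 0.127, 0.135 and 0.356) or replicate 3 (0.140, 0.124 and 0.169), nor without the variance trend (0.0665, 0.0934 and 0.141), whereas Actn1 was called without any 1 of the 3 and without the trend (0.0441). Pxn also missed the threshold with quantile normalization and with CPM.

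Smooth muscle genes and their regulators, the nuclear side of Csrp2 biology, gave 0 calls of 14 listed with fulvestrant alone (limma, 4 at an unadjusted p under 0.05, median 0.08). Of all 13233 genes, 5.23% were called in this comparison and 2891 were at an unadjusted p under 0.05. Under E2 plus fulvestrant against E2, 1 of the 14 rose, Srf (0.33, adjusted p = 0.0276), and 3 fell, beside 4.60% of all genes called higher and 4.07% called lower. Those that fell were the smooth muscle actin gene Acta2 (-0.31, adjusted p = 0.0123), the tropomyosin gene Tpm1 (-0.43, adjusted p = 0.00987) and the myosin light chain gene Myl9 (-0.81, adjusted p = 0.00272). Of these 4 genes, 0 were called without the block, with adjusted p-values of 0.691 or more. Myocd and Des were not listed.

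Of the 3 listed enzymes around Qpct, 0 were called by limma with E2, beside 0.431% of all genes, which does not set them apart. At an unadjusted p under 0.05 were 2 of the 3, beside 1917 of all 13233 genes. Qpctl, which encodes the Golgi form of the cyclotransferase, had 274 ± 44.8 normalized counts with vehicle, 342 ± 70.3 with E2, 336 ± 82.9 with E2 plus fulvestrant and 338 ± 76.3 with fulvestrant (SD, n = 3). It was not called in any of the comparisons, with a log2 difference of 0.31 for E2 against vehicle (SE 0.10, adjusted p = 0.254) and of -0.04 for E2 plus fulvestrant against E2 (SE 0.12, adjusted p = 0.861). Pgpep1, which removes pyroglutamate, was not called either (0.23 with fulvestrant alone, SE 0.09, adjusted p = 0.218). Trhde, an ectoenzyme that cleaves the pyroglutamate of thyrotropin-releasing hormone, fell by 0.78 with fulvestrant alone (SE 0.10, adjusted p = 0.0110, and 0.978 without the block), and was thus 1 of 3 listed enzymes called, beside 2.49% of all genes called lower. This call was lost without replicate 2 (-0.86, adjusted p = 0.0541), replicate 3 (-0.73, 0.0829) or the variance trend (0.0557). Its level differed widely between replicates, from 300.1 to 2905 normalized counts with vehicle. Of the 10 proteins with an N-terminal pyroglutamate, among them collagens and chemokines, 0 were called with fulvestrant alone (limma, 3 at an unadjusted p under 0.05, median -0.12). Of all 13233 genes, 5.23% were called in this comparison and 2891 were at an unadjusted p under 0.05. With E2 plus fulvestrant against E2, 1 of the 10 fell, the collagen gene Col1a1 (-0.67, adjusted p = 0.00954, and 0.900 without the block), beside 4.07% of all genes called lower.

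**Figure D4:**
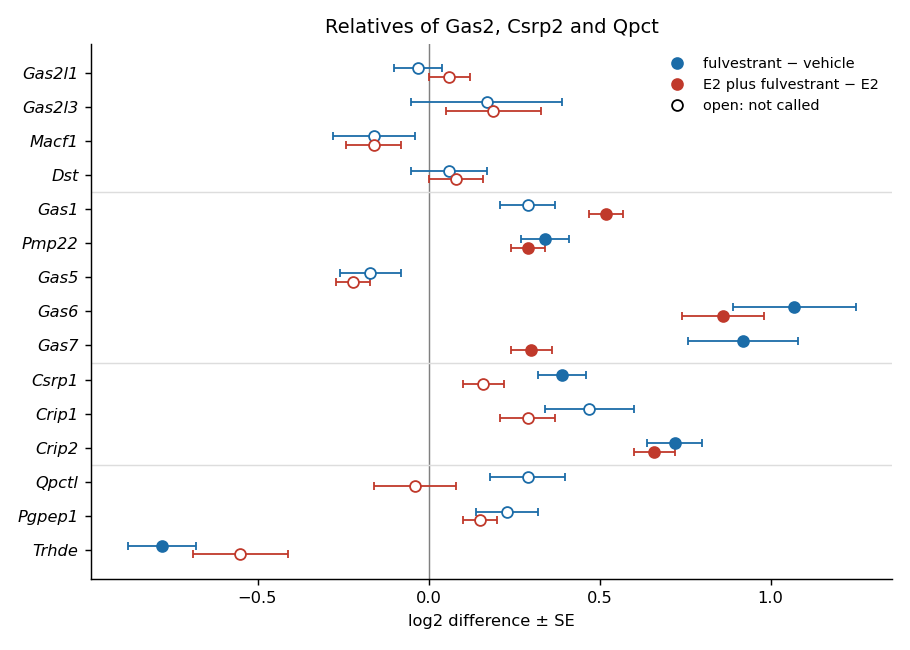
Log2 differences ± SE (x axis) of the relatives of Gas2 and other growth arrest-specific genes, of Csrp2 and of Qpct (y axis, in blocks) under fulvestrant against vehicle in blue and E2 plus fulvestrant against E2 in red, with filled points where the gene was called. Gas6 rose by 1.07 and Crip2 by 0.72 under fulvestrant alone, whereas Trhde fell by 0.78.

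Whether the fulvestrant difference itself differed with E2 was tested across all genes, and for the members it is given above as a description. In a limma fit of all 12 samples with the replicate block, 0 of 13233 genes had an adjusted p under 0.05 for the interaction of E2 and fulvestrant, with 501 at an unadjusted p under 0.05. Under E2 plus fulvestrant against fulvestrant, 0 genes were called as well (0%), with 516 at an unadjusted p under 0.05.

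Of the markers of other cell types, 0 were called by limma under fulvestrant alone, with 4 of the 10 listed at an unadjusted p under 0.05. Of all 13233 genes, 5.23% were called in this comparison and 2891 were at an unadjusted p under 0.05. Of 8 smooth muscle and pericyte markers 5 were listed, with a summed level of 4860 to 8533 normalized counts with vehicle and 6421 to 7469 with fulvestrant, and the pericyte marker Rgs5 was not listed. Of 6 endothelial markers only Tek was listed (58 to 277 with vehicle, 71 to 193 with fulvestrant), and Pecam1 and Cdh5 were not. Of 6 immune markers Cd68 and Lyz2 were listed, summing to 161 to 389 with vehicle and 136 to 172 with fulvestrant, and Ptprc was not. Of 4 Schwann cell markers 2 were listed, with summed levels of 181 to 223 with vehicle and 112 to 171 with fulvestrant, and Sox10 was not. The 9 fibroblast markers summed to 364520 to 467118 with vehicle and 297827 to 403584 with fulvestrant. Of these, 8 had a negative log2 difference and 1 a positive one (median -0.34, against 0.01 over all genes). At an unadjusted p under 0.05 were 3 of them. The only 1 called was Lum, which fell (-1.18, SE 0.13, adjusted p = 0.00653, and 0.978 without the block), beside 2.49% of all genes called lower. Lum was not called without replicate 2 (-1.10, adjusted p = 0.0528), replicate 3 (-1.06, 0.0727) or the variance trend (0.0627). Every gene named here as called under fulvestrant alone was also called without replicate 1. Their part in the falls of Gas2 and Csrp2 was not tested, and in bulk samples fewer cells of a kind and less RNA per cell cannot be told apart.

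Over the 12 samples, with the mean of each replicate number removed, Csrp2 and Qpct followed each other most closely (Pearson r = 0.95), Gas2 and Csrp2 less so (r = 0.80) and Gas2 and Qpct least (r = 0.60). These values describe samples that share libraries and 4 treatments, and the E2 and E2 plus fulvestrant samples chose the genes. Among 11271 genes with a mean of at least 100 normalized counts, those most like Gas2 were Serpine2, an inhibitor of serine proteases (r = 0.996), Adcy3, an adenylyl cyclase (r = 0.994), Sfrp1, a secreted Wnt antagonist (r = 0.993), Marcks, an actin-binding substrate of protein kinase C (r = 0.991), and Zfp618, a zinc finger gene (r = 0.990). In all, 147 genes had an r over 0.95 with Gas2. Without removing the replicate mean, r with Gas2 was 0.73 for Serpine2, 0.93 for Adcy3, 0.48 for Sfrp1, 0.96 for Marcks and 0.74 for Zfp618. Serpine2 had means of 12000 normalized counts with vehicle, 10350 with E2, 6655 with E2 plus fulvestrant and 7023 with fulvestrant, which is the order of Gas2.

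Fewer genes followed Csrp2 and Qpct as closely, with 23 and 11 genes over 0.95. The 5 most like Csrp2 were Gstm4, a glutathione transferase (r = 0.979), Slc38a10, a putative amino acid transporter (r = 0.974), Agtr2, the angiotensin receptor AT2 (r = 0.971), the collagen gene Col3a1 (r = 0.970) and Mlec, a lectin of the endoplasmic reticulum (r = 0.968). Agtr2 had means of 1084 normalized counts with vehicle, 2060 with E2, 735.8 with E2 plus fulvestrant and 711.6 with fulvestrant. A high r describes the shape of a pattern and not its size. Slc38a10 moved much less, with means of 6717, 7120, 6481 and 6337 in the same order of groups. So did Mlec, with 11630, 12700, 11110 and 10560. The 5 most like Qpct were Samd5 (r = 0.967), Palld, the actin-associated palladin (r = 0.966), Slco2a1, a prostaglandin transporter (r = 0.964), Atp8b1, a phospholipid flippase (r = 0.964), and Gpam, an acyltransferase of glycerolipid synthesis (r = 0.961). Slco2a1 had means of 130.2 with vehicle, 405.8 with E2, 85.89 with E2 plus fulvestrant and 84.46 with fulvestrant, so that it too stood highest with E2. Without removing the replicate mean, r with Csrp2 was 0.80 for Gstm4, 0.55 for Slc38a10, 0.97 for Agtr2, 0.56 for Col3a1 and 0.80 for Mlec. The same values with Qpct were 0.62 for Samd5, 0.96 for Palld, 0.96 for Slco2a1, 0.29 for Atp8b1 and 0.87 for Gpam.

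**Figure D5:**
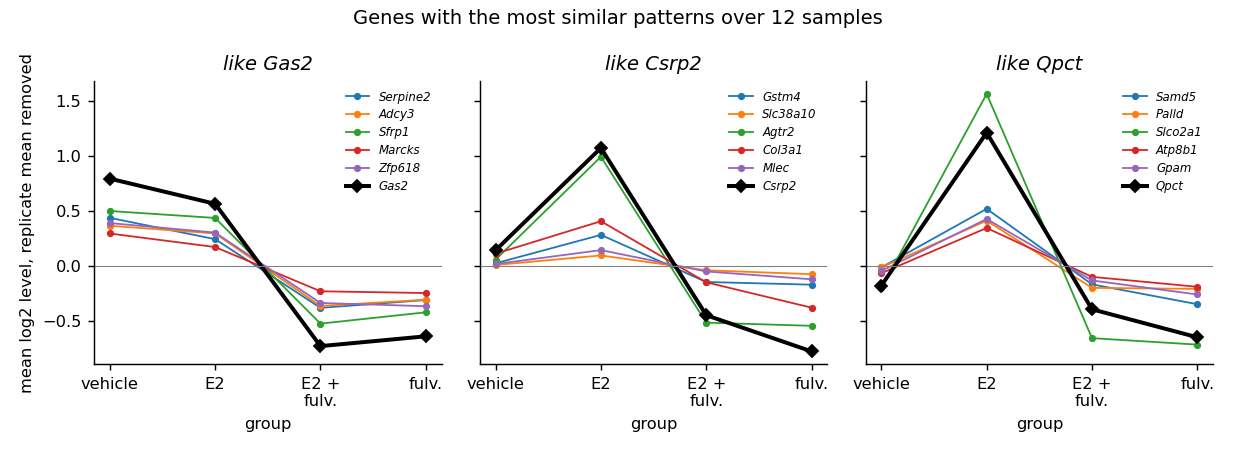
Mean log2 level (y axis, the mean of each replicate number over the 4 groups removed, so that 0 is the mean of all groups) of each member in black and of the 5 genes most like it in colour, by group (x axis). The genes like Gas2 step down with fulvestrant (r of 0.990 to 0.996), and those like Csrp2 (0.968 to 0.979) and Qpct (0.961 to 0.967) peak with E2.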

How the data were processed

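RNA was sequenced from HAFs in 12 samples, 3 in each of 4 groups taken from the sample labels. Per the submitters' processing notes and the study's methods, the authors trimmed reads with Trimmomatic 0.39, aligned them to mm10 with STAR 2.5.2, counted them by gene and strand with HTSeq 0.13.5, removed counts fewer than 10 and normalized by median of ratios in DESeq2 1.37. What the authors deposited is a signal, the normalized count of each gene in each sample. Multiplied by a factor per sample, 100% of them were whole reads within 0.01, the lowest being 10 reads, so genes with fewer reads in any sample are not in the table. The authors also reduced batch effects, but the deposited values still separate by replicate number.

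Symbols and positions came from GENCODE M21, with a symbol for 13154 of 13233 genes. Log2(normalized count + 1) was fitted with limma 3.58.1 in R 4.3.3 with a variance trend, on the samples of the 2 groups compared. A fold change on this scale understates the change of low genes. The replicate number was a block. The pairing comes from the numbers in the labels, and the deviations of same-numbered samples from their group means correlated at 0.63 to 0.92 across genes in all 18 pairs of samples. Those of differently numbered samples ran from -0.86 to 0.79 in 36 pairs, which overlaps that range, and the first principal component set replicate 1 apart from replicates 2 and 3 and did not separate the latter. Python 3.11.15 with pandas 2.3.3 and matplotlib 3.10.9 read the values and drew the plots. The fit was tested on simulated data.

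The members and gene lists were chosen with earlier results of these data known. The genes named are the members, their relatives, Esr1 and Pgr, up to 4 called genes per list with the largest difference under fulvestrant against vehicle, and the 5 genes most like each member. Fancf, the genes beside the threshold of the choice, Gas1, Gas5, Nrip1 and those named for E2 plus fulvestrant against E2 were added after their values were seen. The alternatives were the pseudocount, a filter on low values, no block, all 12 samples in the fit, no variance trend, 2 other scalings and leaving out each replicate number.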

Additional observations from a re-analysis of the deposited data

How the results depend on the processing

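In fulvestrant against vehicle, the directions of Gas2, Csrp2 and Qpct were the same under every alternative that was run. Dropping the block, fitting all 12 samples, dropping the trend and filtering low genes cannot change these mean differences. Only the other alternatives could have reversed a direction. A pseudocount of 10, a mean of at least 100 normalized counts, quantile normalization and CPM left the calls of all 3 as they were. Without the replicate block, the pairing by number, Gas2 (-1.43, adjusted p = 0.122) and Csrp2 (-0.92, adjusted p = 0.341) were not called, and the genes called numbered 0 in place of 692, 8 in place of 1148 for E2 plus fulvestrant against E2 and 0 in place of 57 for E2 against vehicle (132 at an unadjusted p under 0.05). Qpct was called with all 12 samples in 1 fit (-0.47, adjusted p = 0.0292), where 1648 genes were called, and 10 for E2 against vehicle. The spread in that fit comes in part from the E2 and E2 plus fulvestrant samples, which chose the members. Nothing is therefore read from this call of Qpct. Without the variance trend Gas2 (adjusted p = 0.0441) and Csrp2 (0.0474) were still called, and 104 genes in all, with 218 for E2 plus fulvestrant against E2 and 0 for E2 against vehicle (limma, 1450 at an unadjusted p under 0.05). Leaving out a replicate number gave -1.52 to -1.33 for Gas2, -0.97 to -0.87 for Csrp2 and -0.69 to -0.32 for Qpct, which was called only without replicate 1. It gave 20 to 2208 genes called for fulvestrant against vehicle (20 without replicate 3, 100 without replicate 2, 2208 without replicate 1), 351 to 1956 for E2 plus fulvestrant against E2 (351 without replicate 3, 736 without replicate 2, 1956 without replicate 1), 6 to 279 for E2 against vehicle (6 without replicate 3, 24 without replicate 1, 279 without replicate 2) and 0 to 147 for E2 plus fulvestrant against fulvestrant, in place of 0. Each such fit has fewer samples, and the cause of the spread was not tested. The sign reversed for Gas2l1 (0.00) and Gas2l3 (-0.06, up to 0.45 without replicate 1) without replicate 3 and for Dst (-0.06, up to 0.22 without replicate 3) without replicate 1. Of the genes in the lists that are no members, 13 were called in fulvestrant against vehicle, and 0 without the block, 2 without the trend, 28 with all 12 samples and 1 to 37 without a replicate number (1 without replicate 3, 37 without replicate 1). In E2 plus fulvestrant against E2, 22 of them were called, and 0 without the block or 9 without the trend. Leaving out a replicate number there gave 10 without replicate 3, 18 without replicate 2 and 32 without replicate 1. CPM gave -1.38 for Csrp2 in E2 plus fulvestrant against E2 and 0.82 in E2 against vehicle. The planned count-based tests were not run. With 3 samples a group, the lowest count of a member was 78 reads of Csrp2.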
